A study of Mus musculus with 8 samples.

Results

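Ifng and Tnf, the genes of interferon gamma and tumour necrosis factor, were followed across the immune cells of mouse hepatoma tumours in which single cells were captured in droplets and their 3' transcript ends sequenced. Both were chosen by name, and they are 2 of the 2000 genes in the deposited table. The tumours were grown from Hepa1-6, an established mouse hepatoma line, and the labels give 4 groups. Unedited (WT) tumours came from animals injected intraperitoneally with PBS or with an antibody against PD-1. Soat1-edited tumours came from animals given the same injections; they are KO in the titles and knockdown under genotype. Soat1 encodes an enzyme that esterifies cholesterol. Each group has a cDNA entry and an oligo entry, counted as 1 sample. The host strain, its age, the antibody dose and the number of animals are not given in the sources used here.

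The 53528 cells sit in 1 pooled table, and their names end in a number from 1 to 6 that divides them into 6 sets. No label ties a set to a genotype or treatment. The table therefore counts as 1 sample, no comparison of Soat1 or of anti-PD-1 was made, and no test between samples was possible. The sets are described as samples of unknown group. UMIs, the counts of distinct captured transcripts, could be recovered from the deposited values of set 1 alone (9370 cells, 1001 to 261833 UMIs per cell, median 11099). In sets 2 to 6 every cell held values below 0, which a log of counts cannot give, so these values may be batch-integrated and are reported only as means and differences on the deposited natural log scale.

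Interferon gamma is the signature cytokine of activated CD8 T cells, type 1 helper T cells and NK cells. It acts through the receptor subunits Ifngr1 and Ifngr2 to induce chemokines such as Cxcl9 and Cxcl10, guanylate-binding proteins and antigen presentation. Tumour necrosis factor is made by macrophages, monocytes, neutrophils and activated T cells, and signals through Tnfrsf1a and Tnfrsf1b to NF-kB. In tumours, T cells under lasting antigen stimulation are known to carry inhibitory receptors such as PD-1 (Pdcd1) and TIM-3 (Havcr2).

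In GENCODE M21, Ifng (ENSMUSG00000055170.4) lies on the plus strand of chromosome 10 from 118441046 to 118445892, and Tnf (ENSMUSG00000024401.14) lies on the minus strand of chromosome 17 from 35199381 to 35202007. Each has up to 4 exons per transcript. The deposited table carries no coordinates, and these positions are those of the reference build GRCm38. The 250 bases upstream of each start site are printed because they are the stretches where transcription of the 2 cytokines begins. They come from RefSeq (GRCm38.p6), at chr10:118440796-118441045 on the plus strand for Ifng and chr17:35202008-35202257 on the minus strand for Tnf. Capitals mark every TATAAA, the TATA box, and every GGAAA or its complement TTTCC, the core of an NFAT site.
Ifng: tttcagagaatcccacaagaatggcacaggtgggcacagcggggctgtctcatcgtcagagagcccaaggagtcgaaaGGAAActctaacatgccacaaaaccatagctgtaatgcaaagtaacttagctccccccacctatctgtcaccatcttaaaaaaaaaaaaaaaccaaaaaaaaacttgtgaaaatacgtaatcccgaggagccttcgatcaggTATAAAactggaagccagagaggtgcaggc
Tnf: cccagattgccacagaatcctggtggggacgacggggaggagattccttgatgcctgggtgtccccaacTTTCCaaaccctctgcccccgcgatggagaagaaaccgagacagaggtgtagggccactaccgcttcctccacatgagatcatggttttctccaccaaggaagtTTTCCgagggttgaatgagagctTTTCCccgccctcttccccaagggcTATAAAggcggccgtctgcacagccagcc
Both windows held a TATAAA, starting 30 bases before the start site of Ifng and 29 before that of Tnf (positions -30 and -29). On both strands, 12.4% of 32851 mouse promoter windows of the same length held one. Ifng had 1 GGAAA core and Tnf had 3, against a share of 55.6% of windows with at least 1. Neither window held the AP-1 motif TGANTCA (6.75% of windows) or the NF-kB consensus (7.25% of windows). Of the letters, 45.2% were G or C for Ifng and 57.6% for Tnf. Matches describe these letters and are not binding sites.

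Cells were assigned to classes by marker genes, without Ifng, Tnf or the 4 genes later used to split CD8 T cells. Over all sets this gave 13302 T cells, 513 NK cells, 4056 macrophages, 1243 monocytes, 617 neutrophils and 816 conventional dendritic cells, beside 31217 hepatoma cells (58.3%). The labels call every sample a liver cancer cell. The set 1 levels of gating genes that follow describe the classes and are no check on the gates, since these genes set the classes. In CPM, the UMIs of a gene per 1000000 UMIs, CD8 T cells had 821 of Cd8a and 0.562 of Cd4. Conventional CD4 T cells had 534 of Cd4 and 2.95 of Cd8a, and regulatory T cells had 342 of Foxp3. NK cells had 292 of Ncr1, with Cd3g at 71.5. Macrophages had 5826 of C1qa, and neutrophils had 9282 of S100a8. All immune classes carried the hepatoma transcript Afp, at 471 to 1537 CPM over these classes and the monocytes and dendritic cells. Its source was not tested. Gates were least separated for macrophages, where 35.6% of cells had a top score under 1.5 times the next.

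Ifng was carried by T and NK cells. In set 1, T cells held 91.1% of the 7313 Ifng UMIs, and CD8 T cells alone held 80.8%. Levels below are summed over all cells of a class, in CPM, with exact Poisson 95% intervals that cover counting error only. CD8 T cells stood at 830.0 (809 to 851, 5909 UMIs in 1077 cells), with a UMI in 77.4% of cells. Conventional CD4 T cells, which have Cd4 without Foxp3, stood at 914 (815 to 1021, 310 UMIs in 61 cells). NK cells stood at 663 (541 to 805, 102 UMIs in 46 cells). T cells with both or neither of the Cd4 and Cd8 markers, or with a Cd8 marker and Foxp3, stood at 609 (551 to 671).

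Regulatory T cells, which restrain other T cells, stood apart within the T lineage. Their Ifng level was 158 (112 to 218), and 8 of 40 cells held all 38 UMIs. CD8 T cells were 5.24-fold higher (3.81 to 7.41) and conventional CD4 T cells 5.77-fold higher (4.11 to 8.30). A single regulatory T cell held 27 of the 38 UMIs.

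Myeloid cells had little Ifng. By summed UMIs macrophages and monocytes stood above tumour cells, the monocytes mostly through 1 cell. At equal depth the shares of macrophages (0.105% to 1.47%) and tumour cells (0.296% to 0.634%) with a UMI overlapped. Hepatoma cells that both the gate and a clustering placed there, used as the class that should lack the gene, had 3.08 CPM (2.81 to 3.37) and a UMI in 6.68% of cells at a median of 17398 UMIs. Macrophages had 9.93 (6.22 to 15.0), with a UMI in 3.21% of cells at a median of 2746 UMIs. Monocytes had 9 UMIs, 8 of them in 1 cell, a level 7.43-fold that of hepatoma cells (3.37 to 14.2), and neutrophils had 3. Conventional dendritic cells had 0 UMIs in 71 cells, which allows up to 9.45 CPM (3 counts). Macrophages were 3.22-fold above the hepatoma level (2.00 to 4.94), CD8 T cells 269.6-fold and NK cells 215-fold. After each cell was thinned to 1000 UMIs, a UMI was left in 44.9% of CD8 T cells, 41.3% of NK cells, 34.4% of conventional CD4 T cells, 0.507% of macrophages and 0.442% of these hepatoma cells.

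In the order of Ifng levels, conventional CD4 T and CD8 T cells did not differ beyond counting error (ratio 1.10, 0.979 to 1.23) by summed UMIs, nor did NK cells and the unresolved T cells (1.09, 0.867 to 1.36). CD8 T cells were above NK cells by 1.25-fold (1.03 to 1.54), but that order turned when every cell counted equally: the NK to CD8 ratio, 0.799 by summed UMIs, was 1.05 as a mean over cells and 1.03 after thinning. The CD8 to conventional CD4 ratio, 0.908 by summed UMIs, was 0.727 (0.570 to 0.939) after thinning and 0.544 (0.477 to 0.623) with classes taken from clusters, where 32 cells were conventional CD4. Monocytes, neutrophils and macrophages did not differ from one another beyond counting error. Macrophages were above hepatoma cells by summed UMIs, though the intervals of their thinned shares overlapped.

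**Figure D1:**
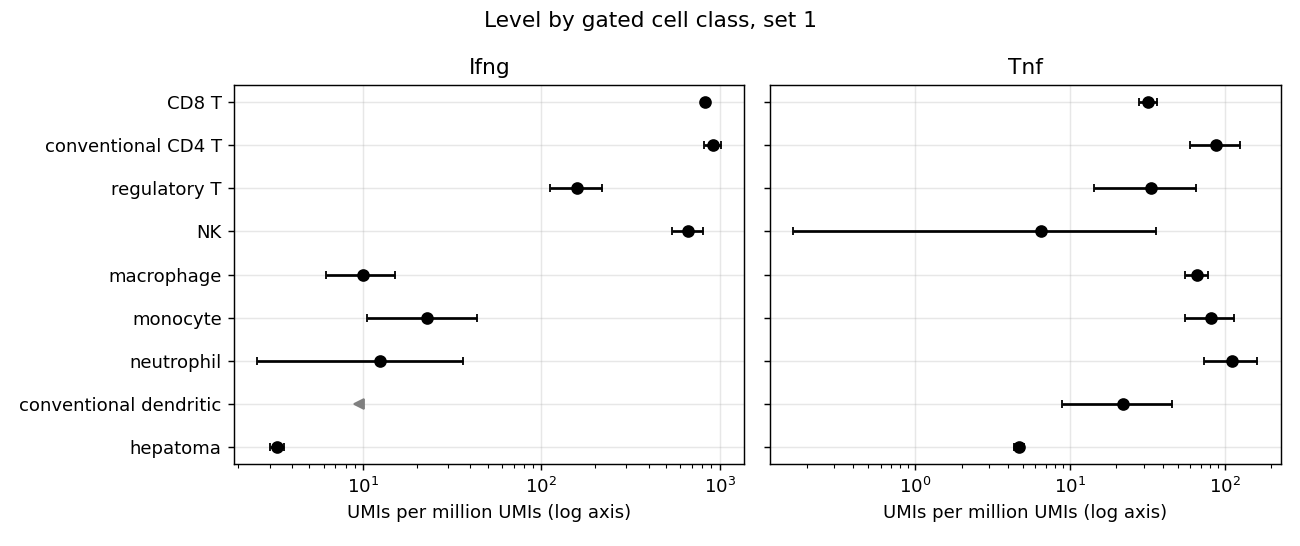
Ifng (left) and Tnf (right) in 9 gated classes of set 1, in CPM on a log axis. Points are summed UMIs over summed totals, bars are exact Poisson 95% intervals, and the grey triangle is the limit of 9.45 allowed by 0 Ifng UMIs in dendritic cells. Ifng separates CD8 T, conventional CD4 T and NK cells from all myeloid classes, and Tnf does not.

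The same split held in all 6 sets on the deposited scale. The mean Ifng value of CD8 T cells was lowest at 1.43, with a median of 1.502 and a highest of 1.64. NK cells ranged from 1.42 to 1.80 (median 1.59) and conventional CD4 T cells from 1.21 to 1.55 (median 1.42). Regulatory T cells ranged from 0.171 to 0.491, below CD8 T cells in 6 of 6 sets by 1.03 to 1.33. Macrophages ranged from 0.0223 to 0.0452 and hepatoma cells from 0.0293 to 0.0491, so their ranges overlapped. Set 3 was high for neutrophils (0.349 in 49 cells, against 0.0355 to 0.217 in the others). NK cells were above CD8 T cells in 3 of 6 sets, and CD8 T cells were above conventional CD4 T cells in 5 of 6.

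Tnf had another distribution. Its 1257 UMIs in set 1 were spread over hepatoma cells (56.8%, in 6826 cells), T cells (24.3%) and macrophages, monocytes and neutrophils (16.3%). Neutrophils had the highest level, 112 CPM (73.5 to 162, 27 UMIs in 105 cells). Conventional CD4 T cells had 88.4 (59.7 to 126, 30 UMIs) and monocytes 81.3 (55.6 to 115, 32 UMIs). Macrophages had 65.9 (55.6 to 77.5, 146 UMIs in 592 cells). CD8 T cells had 32.0 (28.0 to 36.5, 228 UMIs), with a UMI in 14.3% of cells. Regulatory T cells had 33.4 (14.4 to 65.7, 8 UMIs), conventional dendritic cells 22.04 (8.86 to 45.4, 7 UMIs) and NK cells 6.50 (0.165 to 36.2, 1 UMI).

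Macrophages carried 2.06-fold more Tnf per UMI than CD8 T cells (1.66 to 2.54), and neutrophils 3.48-fold more (2.25 to 5.20). Within T cells, the CD8 level was 0.362 times that of conventional CD4 T cells (0.247 to 0.549). The same ratio was 0.583 as a mean over cells and 0.532 after thinning, where its interval (0.213 to 1.72) included 1. Hepatoma cells by gate and cluster stood at 4.33 (4.00 to 4.67), with a UMI in 5.63% of cells against 15.0% of macrophages. CD8 T cells were 7.40-fold above that (6.34 to 8.62) and macrophages 15.2-fold (12.6 to 18.3). Neighbours from neutrophils down to macrophages did not differ beyond counting error; the ends of that run did, with neutrophils 1.69-fold above macrophages (1.08 to 2.57). Monocytes over macrophages gave 1.23 (0.814 to 1.82), and 0.56 after thinning. Among dendritic cells, those with Ccr7, a gene of migrating mature cells, had 1 Tnf UMI in 22 cells, and those with Xcr1 or Clec9a, markers of the type 1 subset, had 3 in 27.

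The mean deposited Tnf values of neutrophils over the 6 sets were 0.188 at the lowest, 0.405 at the median and 0.635 at the highest. Conventional CD4 T cells ranged from 0.229 to 0.349, monocytes from 0.239 to 0.431 and macrophages from 0.203 to 0.295. CD8 T cells ranged from 0.123 to 0.154, below both conventional CD4 T cells and macrophages in 6 of 6 sets, and their range did not overlap with either. Neutrophils were above macrophages in 5 of 6 sets; set 2 was the exception, by 0.0227. NK cells ranged from 0.0365 to 0.161 and were below CD8 T cells in 5 sets. Hepatoma cells ranged from 0.0308 to 0.0664.

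**Figure D2:**
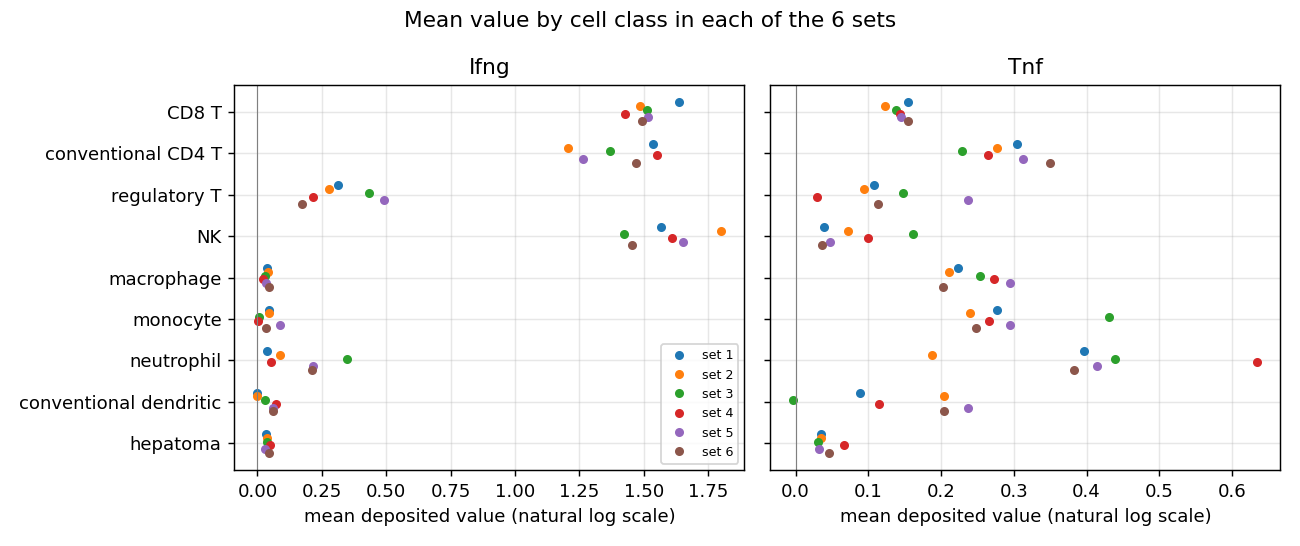
Mean deposited value (natural log scale) of Ifng (left) and Tnf (right) in 9 classes, with 1 point per set; the vertical line marks 0. CD8 T cells lie between 1.43 and 1.64 for Ifng, near NK cells, and between 0.123 and 0.154 for Tnf, below all 6 points of macrophages and of conventional CD4 T cells.

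The balance of the 2 cytokines set the classes apart. Tnf UMIs per Ifng UMI were 0.0386 in CD8 T cells (0.0337 to 0.0440), 0.0968 in conventional CD4 T cells (0.0642 to 0.141) and 0.0098 in NK cells (1 Tnf UMI). They were 6.64 in macrophages (4.22 to 10.9), 3.56 in monocytes and 9 in neutrophils. In hepatoma cells by gate and cluster the ratio was 1.40 (1.25 to 1.59). These are ratios of captured transcripts, used to compare classes and not the 2 genes.

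Ifng was uneven among CD8 T cells. Of the 1077 cells, 243 had no UMI, 168 had 1, and 153 (14.2%) had 10 or more and held 59.2% of the UMIs. One cell held 376. Among conventional CD4 T cells, 11 of 61 had 10 or more and held 72.6%, whereas 1 of 46 NK cells reached 10. Tnf never passed 10 UMIs in a CD8 T cell: 923 had none, 116 had 1, and 1 had 10. In macrophages 2 of 592 cells had 10 or more, with a highest count of 13.

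Within CD8 T cells of set 1, Ifng was higher and Tnf lower by summed UMIs in cells with Havcr2 than in cells without it. Havcr2 encodes TIM-3, an inhibitory receptor. The 487 cells without a Havcr2 UMI had 627 Ifng CPM (594 to 662). Havcr2-positive cells below their median level had 819 (787 to 851) and those above it 1074 (1028 to 1122), so the 3 intervals did not overlap. Tnf ran the other way, at 46.1 (37.4 to 56.3), 28.5 (22.8 to 35.0) and 22.2 (16.0 to 30.1), where the upper over the lower positive cells gave 0.782 (0.528 to 1.14), not resolved by the counts. Havcr2-positive over Havcr2-negative cells gave 1.46 for Ifng (1.37 to 1.55) and 0.566 for Tnf (0.432 to 0.744). Median depth was 6580 UMIs in positive and 3381 in negative cells. In positive cells below and above their median Havcr2 level, the thinned Ifng shares were 49.2% (43.3 to 55.0) and 53.2% (47.3 to 59.0). These overlap, so the thinned shares resolved no rise among positive cells. Before thinning the shares were 90.5% and 83.1%, at median depths of 8536 and 4492 UMIs. In positive and negative cells C1qa was at 20.3 and 15.2 CPM and Cd3g at 699 and 736. The part of both genes in the result was not tested.

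Pdcd1 divided the cells unequally, since 964 of 1077 had a UMI. Ifng was 833 CPM in Pdcd1-positive and 747 in Pdcd1-negative cells, a ratio of 1.11 (0.971 to 1.29). Tnf was 31.3 and 50.3, a ratio of 0.622 (0.363 to 1.16) that rests on 14 UMIs in the 113 negative cells. Neither ratio was resolved by the counts, and both turned when the cells were thinned and split again on the thinned counts into 589 positive and 488 negative cells, to 0.871 for Ifng (0.764 to 0.995) and 1.22 for Tnf (0.658 to 2.31). With the first split kept, 45.1% of positive and 43.4% of negative cells had a thinned Ifng UMI, and 3.32% and 3.54% a thinned Tnf UMI. Among Pdcd1-positive cells, those that also had Havcr2 were 1.497-fold higher in Ifng than those without (1.40 to 1.60) and 0.556-fold in Tnf (0.420 to 0.739).

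Xcl1, a chemokine that attracts type 1 dendritic cells, marked CD8 T cells with more Tnf by summed UMIs. Tnf was 24.4 CPM in the 760 cells without Xcl1 (20.02 to 29.5), 35.1 in positive cells below their median level (26.6 to 45.5) and 58.8 above it (45.2 to 75.2). Xcl1-positive over negative cells gave 1.82 (1.39 to 2.39). For Ifng the same ratio was 1.10 (1.04 to 1.16) and the course was not even. It was 800.1 without Xcl1, 709 below the median of positive cells and 1137 (1074 to 1203) above it. With this split kept, a thinned Tnf UMI was left in 2.63%, 5.66% and 4.43% of these groups in the same order. Among positive cells that share did not rise with the Xcl1 level. Over all positive cells it was 5.05% (2.91 to 8.07), and its interval overlaps that of the cells without Xcl1 (1.61 to 4.04). A thinned Ifng UMI was left in 43.7%, 47.8% and 48.1%, without the dip.

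Il7r, the receptor subunit for IL-7 found on memory and naive T cells, gave no difference in Ifng beyond counting error (848 in the 190 positive and 824 in the 887 negative cells, ratio 1.03, 0.971 to 1.09). Tnf was 39.5 in positive and 29.4 in negative cells, a ratio of 1.34 (1.00 to 1.79), and 59.0 (39.2 to 85.2) in positive cells above their median level. The share of cells with a Tnf UMI after thinning went against this, at 2.11% in positive and 3.61% in negative cells, so no order was read from the Il7r split.

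**Figure D3:**
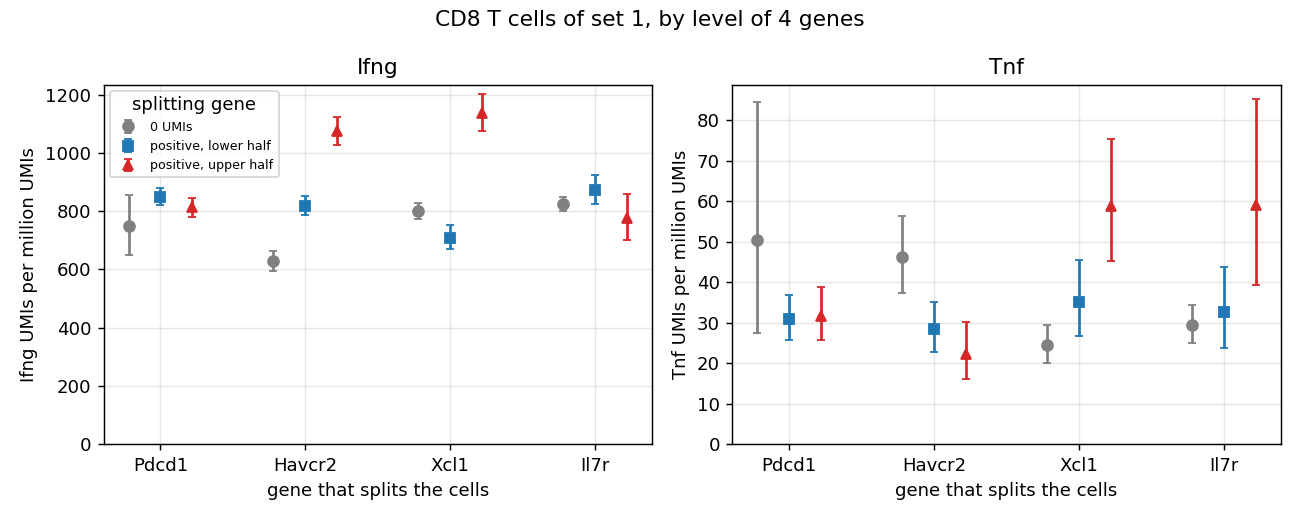
Ifng (left) and Tnf (right) CPM in CD8 T cells of set 1, split by 0 UMIs (grey circles), cells below (blue squares) and above (red triangles) the median level of positive cells, for Pdcd1, Havcr2, Xcl1 or Il7r; bars are exact Poisson 95% intervals. Across Havcr2 the 2 cytokines run in opposite directions by summed UMIs, from 627 to 1074 for Ifng and from 46.1 to 22.2 for Tnf.

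Crossing the splits kept the Xcl1 contrast in Tnf by summed UMIs. Cells with Xcl1 and no Havcr2 (159 cells) had 66.1 Tnf CPM, against 21.6 in cells with Havcr2 and no Xcl1 (432 cells), a ratio of 3.06 (2.12 to 4.41). For Ifng the same cells stood at 659 and 875, a ratio of 0.753 (0.687 to 0.824). By summed UMIs Xcl1 went with higher Tnf both within Havcr2-positive cells (1.58, 1.10 to 2.26) and within Havcr2-negative cells (2.08, 1.36 to 3.20). A thinned Tnf UMI was left in 4.43% (1.80 to 8.92) of Havcr2-positive cells with Xcl1 and 1.39% (0.511 to 3.00) without. In Havcr2-negative cells the shares were 5.66% (2.62 to 10.5) and 4.27% (2.35 to 7.06). These intervals overlap within both groups and in the 3.06 contrast, so the thinned shares resolved no order in Tnf. For Ifng, Xcl1 gave 1.13 (1.06 to 1.20) within Havcr2-positive cells, but 1.09 (0.975 to 1.22) within Havcr2-negative cells and 1.01 (0.952 to 1.08) within Il7r-negative cells, where the counts resolved no difference. Cells with Il7r and no Havcr2 (67 cells) had 484 of Ifng and 76.7 of Tnf. Cells with Havcr2 and no Il7r had 904 and 24.6. The ratios were 0.536 (0.459 to 0.622) and 3.12 (1.97 to 4.79). After thinning, a Tnf UMI was left in 2.99% (0.364 to 10.4) and 2.36% (1.18 to 4.18) of these cells. Those shares overlap, so no order in Tnf was read from this contrast. Within Xcl1-negative cells, Il7r gave a Tnf ratio of 0.817 (0.470 to 1.35) and an Ifng ratio of 0.884 (0.811 to 0.962).

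Cycling CD8 T cells, those with a UMI of Mki67 or Top2a (673 cells), did not differ from the rest beyond counting error in Ifng (0.989, 0.928 to 1.06) or Tnf (1.03, 0.740 to 1.47). The Havcr2 contrast in Ifng was 1.47 among cycling and 1.49 among other cells. For Tnf it was 0.649 (0.476 to 0.894) among cycling and 0.272 (0.124 to 0.552) among other cells, the latter from 11 and 33 UMIs. By tertiles of depth from shallowest to deepest, Tnf was 52.7, 30.0 and 29.4 CPM, and Ifng was 914, 814 and 823. Shares of cells with a thinned UMI ran the other way. They were 2.51%, 3.06% and 4.46% for Tnf and 43.2%, 44.6% and 47.1% for Ifng, so no order by depth was read. In the middle tertile alone, the Havcr2 ratios were 1.51 for Ifng (1.36 to 1.69) and 0.550 for Tnf (0.302 to 0.979). The Xcl1 ratio for Tnf there was 1.78 (0.984 to 3.16), which the counts did not resolve. The Pdcd1 ratios there were 1.83 for Ifng (1.32 to 2.61) and 0.319 for Tnf (0.143 to 0.835), against only 19 Pdcd1-negative cells.

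Over the 6 sets, on the deposited scale, the Xcl1 and Havcr2 results for Ifng and the Xcl1 result for Tnf had 1 direction, and the Havcr2 result for Tnf did not. Xcl1-positive minus Xcl1-negative CD8 T cells gave 0.0704 to 0.167 for Tnf and 0.185 to 0.343 for Ifng, above 0 in 6 of 6 sets each. Havcr2 gave 0.227 to 0.448 for Ifng (6 of 6). For Tnf it gave -0.0479 to 0.0145, above 0 in 3 of 6, with set 1 the lowest, so the lower Tnf of Havcr2-positive cells was absent from 3 sets on this scale.

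Pdcd1 gave 0.0808 to 0.469 for Ifng (6 of 6) and -0.0332 to 0.0326 for Tnf (3 of 6). Il7r gave 0.0259 to 0.0998 for Tnf (6 of 6) and -0.0231 to 0.184 for Ifng (5 of 6). A shared direction was common on this scale: of 1999 other genes, 26.6% were higher in Pdcd1-positive cells of all 6 sets, 21.6% in Havcr2-positive, 17.1% in Xcl1-positive and 9.10% in Il7r-positive cells.

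**Figure D4:**
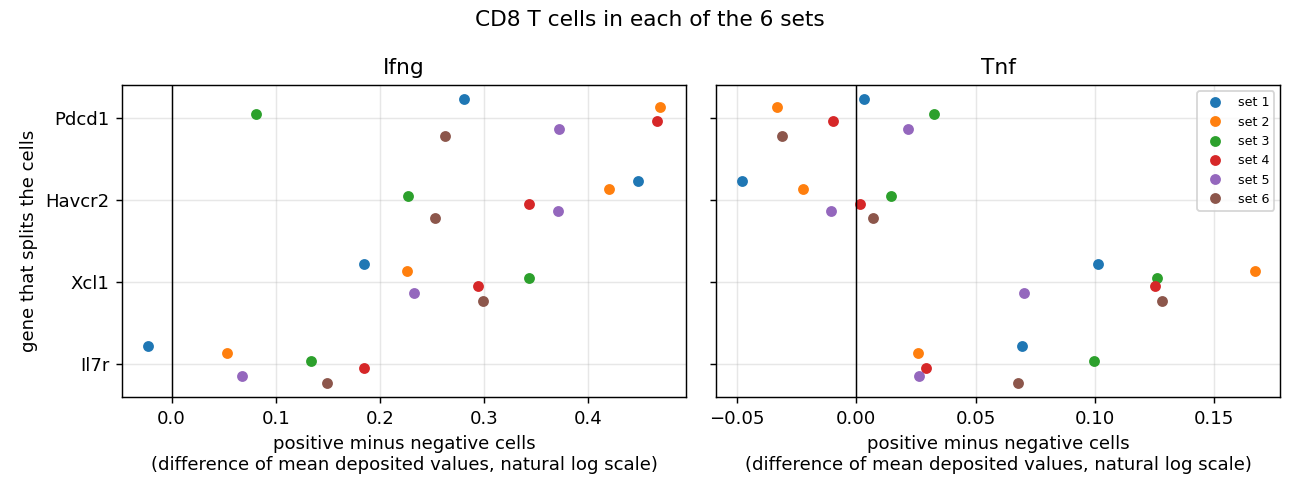
Difference of mean deposited values between CD8 T cells positive and negative for each of 4 genes, for Ifng (left) and Tnf (right), on the natural log scale with 1 point per set; the vertical line marks 0. All 6 points lie above 0 for Xcl1 in both panels, and for Tnf the Havcr2 points lie on both sides of it, from -0.0479 to 0.0145.

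Cells with both cytokines were a minority of the Ifng-positive cells. In set 1, 138 CD8 T cells had a UMI of both genes, where independent detection would give 119. Tnf was found in 16.5% of Ifng-positive cells (14.1 to 19.2, exact Clopper-Pearson) and in 6.58% of Ifng-negative cells (3.81 to 10.5). At an equal depth of 1000 UMIs the shares were 4.34% (2.71 to 6.56) and 2.53% (1.42 to 4.14), which overlap. By tertiles of depth they were 8.10% and 4.70%, 14.1% and 7.25%, and 24.0% and 16.0%. Over the 6 sets, by a deposited value above 0.5, they were 10.9% to 17.1% of Ifng-positive and 5.74% to 8.43% of Ifng-negative cells. The order was the same in each comparison, and at equal depth in set 1 the difference was not detectable.

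Genes that went with each cytokine were read from set 1 after thinning, by lists, as past 1.5-fold on the scale of CPM plus 10 among genes with at least 20 UMIs. With 1 sample there is no test, and a share near that of all genes says nothing of a list. Between 484 Ifng-positive and 593 Ifng-negative CD8 T cells, 634 genes were compared. Of these, 5.36% were past 1.5-fold higher and 4.1% past 1.5-fold lower, with a median log2 ratio of 0.03.

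The cytokine list had 2 of 8 genes higher, both chemokines. Ccl3, which attracts monocytes and T cells, was 576 CPM in Ifng-positive and 351 in Ifng-negative cells, a ratio of 1.64 (1.37 to 1.98). Ccl1 was 78.5 and 30.4, a ratio of 2.59 (1.44 to 4.81). Both were higher in Ifng-positive cells of 6 of 6 sets, as were 23.9% of all other genes. Xcl1 stood just under the limit at 1.51 before the pseudocount (1.17 to 1.95). None of 5 inducers and transcription factors of Ifng was past the limit, among them Tbx21, the T-bet factor of type 1 cells (0.925, 0.721 to 1.18) and the IL-18 receptor gene Il18r1 (1.18, 0.905 to 1.53). None of 5 inhibitory receptor list genes and none of 13 early activation genes was past it.

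Of 20 interferon gamma target genes, 3 were higher (Gbp5, Gbp6 and Irgm2) and 1 lower (Irgm1), each on 20 to 60 thinned UMIs; the list's median log2 ratio was 0.08. Of 12 cell cycle genes, Cenpf and Cdk1 were higher. Of 11 cytotoxic granule genes, Gzmd (0.390, 0.141 to 0.945) and Gzmf (0.570, 0.318 to 0.990) were lower, yet on the deposited scale both were higher in 6 of 6 sets. Of the receptor and signalling list, the feedback inhibitors Socs1 and Socs3 were measured and neither was past the limit.

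Between 36 Tnf-positive and 1041 Tnf-negative CD8 T cells, 17.5% of 634 genes were past 1.5-fold higher and 24.4% lower. Egr1, an immediate early transcription factor, was higher (444 and 206 CPM, ratio 2.16, 1.21 to 3.59), and Nr4a3 and Fosb were the other early activation genes past the limit, with Tnfrsf9 lower; that is 3 of 13 higher. Of 11 cytotoxic granule genes 5 were lower and none higher. Of those 5, Gzmd and Gzmf had 0 UMIs in Tnf-positive cells and Gzmc had 1. In Tnf-negative cells they too lay below the limit of 3 counts (Gzmc at 55.7 CPM). No difference was therefore detectable in set 1 for Gzmc, Gzmd and Gzmf, which leaves Nkg7 and Gzma there. Nkg7, a granule membrane protein, was 500.0 and 1144 CPM (0.437, 0.258 to 0.693). Gzma, granzyme A, had 0 UMIs in Tnf-positive cells and 252 CPM in Tnf-negative cells, at least 3.02-fold lower against the limit of 3 counts over the 36 cells (83.3 CPM). Gzmb, granzyme B, was 1.05-fold. Ccl5, a chemokine of memory and effector T cells, was 0.608-fold (0.444 to 0.813) and lower in 6 of 6 sets, as were 3.802% of all other genes. Gzmf was also lower in 6 of 6 sets on the deposited scale (-0.107 to -0.0174). On that scale Gzmb, Gzmc, Gzmd and Nkg7 were higher in Tnf-positive cells of 1 of 6 sets, and Gzma of 2 of 6. C1qa had 2 UMIs in the Tnf-positive cells, and Csf3r and S100a8 had 0.

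In macrophages and monocytes, genes of the TNF and NF-kB response list went with Tnf. Between 44 Tnf-positive and 663 Tnf-negative cells, 16.5% of 589 genes were past 1.5-fold higher and 22.8% lower, and the median log2 ratio was -0.06. Of 13 genes of that list, 7 were higher and 1 lower, and the list's median was 0.59. The neutrophil-attracting chemokines Cxcl2 (2386 and 1167 CPM, ratio 2.04, 1.65 to 2.51) and Cxcl3 (4.04, 2.67 to 5.98) were higher. So were Ccl4 (2.17, 1.64 to 2.84), Ccl2 (1.51, 1.08 to 2.07), Ptgs2, which makes prostaglandins (1.95, 1.27 to 2.90), Ccl3 and Il1rn. Mmp9 had 0 UMIs in Tnf-positive cells and 89.0 CPM in the others, at least 1.31-fold lower against the limit of 3 counts over the 44 cells. Il1b, the interleukin 1 beta gene, was within 1.5-fold.

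Of 20 interferon gamma target genes in the same cells, 6 were higher and 1, Igtp, lower, with a median of 0.30. Igtp had 1 UMI in Tnf-positive cells and 54.3 CPM in Tnf-negative cells, below the limit of 3 counts (68.2 CPM), so no difference was detectable for it. Cxcl10 was 1864 and 718 CPM (2.60, 2.03 to 3.29), Cxcl9 was 1.52-fold (1.07 to 2.10) and Cd74, the invariant chain of class II presentation, 1.58-fold (1.33 to 1.87). Gbp4, Gbp5 and Irgm1 were the others. Dusp2, a phosphatase induced by activation, was 2.94-fold (1.81 to 4.58). C1qa did not differ (1.04, 0.909 to 1.18) and monocytes were 3 of the 44 and 112 of the 663 cells. Csf3r, a neutrophil gene, was 159 and 43.7 CPM (7 and 29 UMIs) while S100a8 was at 0 and 2 UMIs; their part in the result was not tested. Cxcl2, Ccl4, Cxcl10, Cxcl9 and Dusp2 were higher in Tnf-positive cells of 6 of 6 sets, as were 9.65% of all other genes. Cd74 and Irgm1 were higher in 5 of 6 sets and Cxcl3 in 4 of 6.

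**Figure D5:**
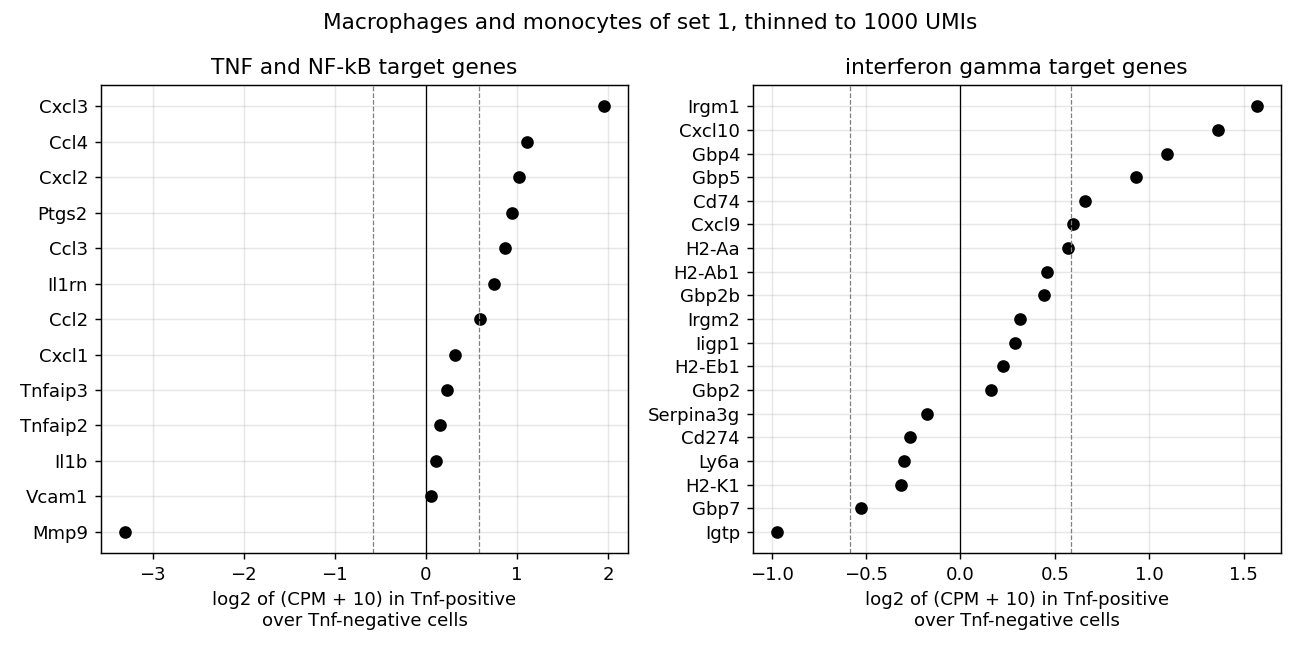
Log2 ratio of CPM plus 10 between Tnf-positive and Tnf-negative macrophages and monocytes of set 1 for the 13 measured TNF and NF-kB target genes (left) and 19 of the 20 interferon gamma target genes (right); dashed lines mark 1.5-fold. On the left 7 and on the right 6 genes lie beyond the right line, and 1 gene of each list lies beyond the left.

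Macrophages split by their state also differed in Tnf. Macrophages with a Cxcl9 UMI, an interferon-induced chemokine, had 78.9 Tnf CPM, against 48.5 without (ratio 1.63, 1.14 to 2.36), and were higher in 5 of 6 sets. Macrophages with Arg1, the arginase gene of repair-associated cells, had 48.0 against 72.9 (0.659, 0.425 to 0.991), and the direction held in 3 of 6 sets. Median depth was 3524 and 2181 UMIs for the Cxcl9 split and 2784 and 2732 for Arg1.

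By Pearson correlation over 14 gated classes of set 1, the genes most like Ifng included the T and NK cell genes Ms4a4b (0.984), Trbc1 (0.974), Gm19585 (0.969), Nkg7 (0.965), Lck (0.965), Cd226 (0.958) and Il2rb (0.956). Of these, Trbc1 and Lck are T cell gating markers, so their profile over the classes was partly fixed by the gates. Tnf had no such close match. Its nearest were Ccrl2 (0.840) and Lilr4b (0.810), then Gbp7 (0.747), Cxcl10 (0.740), Isg15, E2f8, Cd300ld and Bcl2a1b (0.701). All classes come from set 1 and differ in depth. Over the 1077 thinned CD8 T cells, correlations were weak throughout: the highest was Ccl3 for Ifng (0.132), where the median of 373 genes was 0.0060, and Slc20a1 for Tnf (0.0851).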

How the data were processed

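Per the labels' protocols, 3' UMI libraries were made on the DNBelab C4 system, UMIs were counted with PISA and cells chosen with the barcodeRanks function of DropletUtils. Per the submitters' processing notes, STAR 2.7.2b was used; per the labels' design text reads were aligned to GRCh38, and the notes also name mm10. The gene names are mouse symbols. The authors deposited 1 table on the natural log scale; in set 1 a value is the log of 1 + UMIs per 10000 UMIs of that cell. How the values of the other sets were changed is not given in the sources used here, and their depth is unknown.

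In set 1 the UMI total of each cell was solved from its low values; it was found for 100% of cells, and 100% of nonzero values were then whole within 0.01. The table's genes hold 15.0% of these UMIs. A cell joined the lineage with the highest mean marker value (each marker scaled to a near-maximum of its own and limited to 1), given at least 2 markers above 0.5. T cells were split by Cd8a, Cd8b1, Cd4 and Foxp3. Scrublet (scanpy 1.11.5) called 91 doublets of 9370 cells, which were left out. Cell names carry no barcode sequence, so barcodes shared by sets were not counted. Thinning drew 1000 UMIs per cell without replacement. Ratios of summed UMIs have exact conditional Poisson 95% intervals (scipy 1.17.1); all intervals and limits cover counting error only. Genes were called past 1.5-fold with 10 CPM (UMIs per 1000000 UMIs) added, at 20 UMIs or more. The scripts were tested on simulated data.

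Named are both members, gating and splitting genes, list genes past 1.5-fold or listed by role, and the 8 genes most like each member over classes (at least 50 UMIs) and over CD8 T cells (a UMI in at least 5%). Members and lists were chosen with earlier results of these data known. H2-Aa and similar list genes within 1.5-fold are shown in the plot only. Some genes that the rule names are not reported here. Alternatives were other gates, doublets kept, means over cells, thinning, extreme cells left out, Leiden clusters (leidenalg 0.10.2), pseudocounts and count filters.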

Additional observations from a re-analysis of the deposited data

How the results depend on the processing

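Of 119 alternative values, 81 stayed within the interval of the reported value (for counts of genes, within 1.5 times), 31 left it without turning and 7 turned. Of the 81, 2 also crossed 1: the Il7r ratio of Ifng averaged over cells (0.992, reported 1.03) and the monocyte to macrophage ratio of Tnf with cluster classes (0.999, reported 1.23). Thinning redrew the splits by Pdcd1, Havcr2, Xcl1 and Il7r on the thinned counts, so its values there change both the depth and the cells compared. The cause was not tested except where fewer genes entered. No paired analysis was possible because the cells carry no link to the labelled groups and all results come from 1 table.

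The NK to CD8 ratio of Ifng reversed from 0.799 to 1.05 averaged over cells, 1.03 after thinning and 1.03 with cluster classes. The CD8 to conventional CD4 ratio of Ifng (0.908) moved to 0.668, 0.727 and 0.544 under the same 3 settings, and that of Tnf (0.362) to 0.583 as a mean over cells. Monocytes over macrophages in Tnf reversed to 0.560 after thinning.

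For Ifng in CD8 T cells, the Pdcd1 ratio reversed to 0.871 after thinning and moved to 1.64 with clusters and 1.83 in the middle tertile of depth, an alternative chosen after seeing the data. The Havcr2 ratio (1.46) moved to 1.35 without the 1% of cells richest in Ifng. The Xcl1 ratio (1.10) moved to 1.16 averaged over cells, 1.32 after thinning, 1.17 with clusters and 1.30 in the middle tertile. The Il7r ratio reversed to 0.863 after thinning and moved to 1.14 in the middle tertile. For Tnf, the Pdcd1 ratio reversed to 1.22 after thinning and moved to 0.319 in the middle tertile. The Havcr2 ratio (0.566) moved to 0.194 after thinning. The Xcl1 ratio (1.82) moved to 2.44 averaged over cells and 3.14 after thinning, and the Il7r ratio (1.34) to 1.81 and 2.50.

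Counts of genes past 1.5-fold depended on the filter. With at least 100 UMIs in place of 20, with no filter, with a pseudocount of 50 and with unthinned counts, the Ifng count in CD8 T cells (60) became 5, 166, 5 and 119, and 93 with a pseudocount of 1. The Tnf count in CD8 T cells (266) became 71, 612, 150 and 65. The Tnf count in macrophages and monocytes (231) became 62, 678, 149 and 127. The small classes limit precision: 46 NK, 61 conventional CD4 T and 40 regulatory T cells of set 1.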

Other observations

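Tnf was more unevenly spread over hepatoma cells than Ifng. Among the 6567 cells of set 1 placed with the hepatoma cells by both gate and cluster, 412 had 1 Ifng UMI, 26 had 2 and 1 had 3, with a variance of 1.05 times the mean. For Tnf, 277 had 1, 50 had 2, 7 had 3 and 36 had 4 or more, up to 18, with a variance of 4.23 times the mean. Those 36 cells, chosen by their Tnf count, held 258 of the 656 Tnf UMIs, so most lay outside them.

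Of their immune markers, C1qa and Trbc2 were near the level of the other hepatoma cells. The neutrophil genes S100a8 and Csf3r, the NK gene Ncr1 and the dendritic cell gene Flt3 were higher, each on few UMIs. C1qa was 15.6 CPM in the 36 cells and 15.8 in the rest, with at most 3 UMIs in a cell. Trbc2 was 12.97 and 12.4, with at most 6 UMIs. Cd3g was 2.59 and 4.44. S100a8 was 10.9 and 3.69, and 1 cell held 13 of its 21 UMIs. Csf3r was 4.67 and 1.88, from 9 UMIs in 6 of the 36 cells. Ncr1 was 1.04 and 0.174 (2 UMIs in the 36 cells), and Flt3 was 1.56 and 0.815 (3 UMIs). Of the 36 cells, 12 had neither C1qa nor Trbc2. Every one had Afp, at a median of 106 UMIs, and Afp was 2834 CPM against 5041 in the rest. Their median total was 36888 UMIs, against 17324. The part of doublets and of depth was not tested. On the deposited scale, 0.740% to 3.40% of gated hepatoma cells in each set had a Tnf value above 1, and 0.375% to 2.58% had such an Ifng value; set 4 was highest for both.

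Of 21 endothelial cells of set 1, 3 held 8 Tnf UMIs, and 6 of these sat in 1 cell. Of 21 B cells, 2 held 6 Ifng UMIs, with Cd3g at 153 CPM in the class.

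The results rest on 1 table with no link to genotype or treatment. Levels come from set 1 alone, and its group is unknown. Values of the other sets were changed by steps not given in the sources used here. Ratios between cells split by a detected gene share that cell's depth, and thinning removed most Tnf UMIs. Intervals cover counting error and not the spread between animals.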
